A study of Homo sapiens with 6 samples.

Results

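The EGR, NR4A and IER immediate early genes and SRF, the factor that switches many of them on, were followed in U937 cells with a hairpin directed at ENO1 and in wild-type U937 cells. The members were chosen by symbol: EGR1, EGR2, EGR3, NR4A1, NR4A2, NR4A3, IER2, IER3, IER5 and SRF, 10 of the 58735 genes in the deposited table, each matched to 1 row. U937 is an established human myeloid leukaemia line with features of immature monocytes. Total RNA was sequenced in 3 libraries labelled shENO1 and 3 libraries of wild-type cells. The label shENO1 is read here as a short hairpin RNA directed at ENO1, which encodes alpha-enolase of glycolysis. The hairpin sequence, the number of clones and a control hairpin are not given in the sources used here, so that an effect of the hairpin on ENO1 and any effect of carrying a hairpin cannot be told apart.

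Immediate early genes are transcribed within minutes of a growth factor, cytokine or stress signal, from promoters that are already loaded and need no new protein. The MAP kinase ERK phosphorylates ternary complex factors such as ELK1, which sit beside SRF on a DNA element called the CArG box, and the kinase arm through CREB acts on cAMP response elements (CRE). The encoded proteins are mostly short-lived transcription factors. EGR1, EGR2 and EGR3 are zinc finger factors that bind GC-rich sites, and EGR1 and EGR2 are known for their part in monocyte and macrophage differentiation. NR4A1, NR4A2 and NR4A3 are orphan nuclear receptors, and mice that lack Nr4a1 and Nr4a3 develop myeloid leukaemia. The IER genes encode unrelated or loosely related proteins: IER2 and IER5 share an amino-terminal region, IER3 is an NF-kB target that modulates survival and ERK signalling, and IER5 binds heat shock factor HSF1 together with the phosphatase PP2A.

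Windows of 250 bases before the transcription start were taken from RefSeq (build GRCh38.p14) for 7 of the 10 members, with 11 windows in all since EGR2, NR4A1 and SRF have more than 1 start. EGR3, NR4A2 and IER3 are named only. The windows below are shown because they hold the elements through which this family is best known to be switched on (EGR1, EGR2 and SRF) and because IER5 was the member that still passed without any 1 library. Letters run 5′ to 3′ along the gene's strand, and capitals mark a match to any motif searched, on either strand.
EGR1, chr5:138465229-138465478, plus strand: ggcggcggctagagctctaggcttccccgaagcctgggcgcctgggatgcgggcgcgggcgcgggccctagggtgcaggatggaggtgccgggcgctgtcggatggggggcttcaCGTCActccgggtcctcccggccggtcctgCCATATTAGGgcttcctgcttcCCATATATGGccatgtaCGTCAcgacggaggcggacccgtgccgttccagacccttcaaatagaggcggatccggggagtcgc
EGR2, chr10:62816367-62816616, minus strand: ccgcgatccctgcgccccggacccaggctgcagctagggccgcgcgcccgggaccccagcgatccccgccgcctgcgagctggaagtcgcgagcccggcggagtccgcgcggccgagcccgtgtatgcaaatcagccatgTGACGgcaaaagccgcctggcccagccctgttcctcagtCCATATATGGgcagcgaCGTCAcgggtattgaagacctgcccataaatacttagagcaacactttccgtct
SRF, chr6:43171019-43171268, plus strand: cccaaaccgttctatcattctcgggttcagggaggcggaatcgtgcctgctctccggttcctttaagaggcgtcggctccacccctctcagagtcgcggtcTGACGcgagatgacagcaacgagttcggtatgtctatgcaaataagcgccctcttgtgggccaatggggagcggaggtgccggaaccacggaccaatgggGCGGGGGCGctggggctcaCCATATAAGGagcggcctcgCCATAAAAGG
IER5, chr1:181088450-181088699, plus strand: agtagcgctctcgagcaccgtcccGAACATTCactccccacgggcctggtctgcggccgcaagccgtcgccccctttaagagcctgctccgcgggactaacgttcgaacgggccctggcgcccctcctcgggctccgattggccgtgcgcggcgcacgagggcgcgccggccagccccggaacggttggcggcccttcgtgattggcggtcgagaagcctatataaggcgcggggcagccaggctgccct

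The EGR1 window held 2 CArG boxes, which are SRF sites, at -105 to -96 and -83 to -74 from the start, between 2 matches to the CRE core TGACG. The EGR2 window, which belongs to the third of its 3 starts, held 1 CArG box at -71 to -62 and 2 CRE cores. The first SRF window held 2 CArG boxes at -30 to -21 and -10 to -1, 1 CRE core and 1 match to GCGGGGGCG, a form of the EGR site. A CArG box was present in 1.16% of all 34943 RefSeq windows of this length and the CRE core in 21.2%, while the EGR form was present in 4.71%. IER5 held 1 match to GAANNTTC, a pair of heat shock factor units, at -226 to -219, and 5.8% of all windows held one. NR4A3 held 4 CRE cores and IER2 held 1. The 2 NR4A1 windows matched none of the motifs searched. This gene has 22 GENCODE transcripts, and any start of it without a window here was not searched. The full CRE TGACGTCA (1.63% of all windows) and the other EGR form GCGTGGGCG (0.721%) matched no window of a member, and the NF-kB consensus (9.95%) matched the second windows of EGR2 and SRF, at -130 to -121 and -38 to -29. A match describes letters in the window and not binding in these cells.

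**Figure D1:**
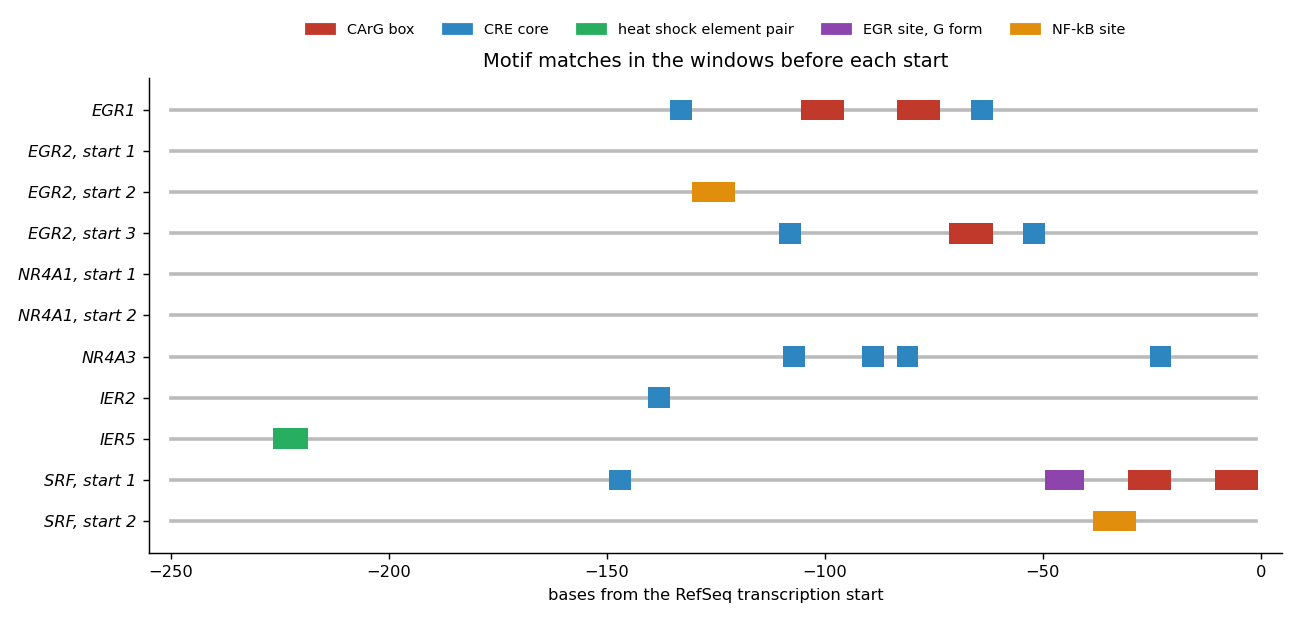
Motif matches in the 11 RefSeq windows of 7 members, drawn as blocks to scale along 250 bases before each start (x axis, bases from the start), 1 line per window. EGR1 has 2 CArG boxes at -105 to -96 and -83 to -74 with a CRE core on each side, SRF has 2 CArG boxes next to its first start, and IER5 has 1 heat shock element pair at -226 to -219.

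The libraries held 14216739 to 17499636 reads in genes, recovered from the FPKM values. ENO1 mRNA was at 95.1 ± 14.4 FPKM in shENO1 cells and at 544 ± 17.4 FPKM in wild-type cells (SD, n = 3 each), with a log2 fold change of -2.51 (limma adjusted p = 0.00129). Whether replicate libraries came from separate cultures is not given, so p-values rest on a spread that may be technical only. In a principal component analysis, component 1 (47.1% of the variance) separated the groups, and component 2 (27.3%) set shENO1 replicate 3 and wild-type replicate 3 at opposite ends. On component 1 both of these libraries also lay nearer to the other group. Their scores were -15.9 (shENO1 replicate 3) and 9.79 (wild-type replicate 3). Replicates 1 and 2 were at -28.3 and -31.5 in shENO1 and at 34.2 and 31.8 in wild-type libraries. Mitochondrial reads made up 5.72% to 7.42% of the shENO1 libraries and 3.38% to 5.19% of the wild-type libraries. Of 14 myeloid markers, not all of them particular to monocytes, the summed level was 2168 to 2657 FPKM in shENO1 libraries. In wild-type libraries it was 1515 to 1729 FPKM, and the sum was led by ELANE, LYZ and PRTN3. These genes made up most of the sum, which does not describe the list as a whole. Named after their values were seen, AZU1 (226 against 266 FPKM), CD4 (113 against 122) and CD33 (11.8 against 13.2) had lower means in shENO1 cells. So did CD68 and MPO, both under 1 FPKM, while the other markers had higher means. Of 13 markers of other cell types, 6 were listed at 0 in all libraries (CD3D, CD3E, MS4A1, HBA1, HBB and GATA1). The summed level of the 13 was 20.9 to 22.8 FPKM in shENO1 and 15.8 to 19.0 FPKM in wild-type libraries, mostly PECAM1, which myeloid cells also express. In bulk RNA, a change in the share of cells that express a gene and a change in RNA per cell cannot be told apart.

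EGR1 rose in shENO1 cells, while IER5, IER3 and NR4A1 fell. SRF, NR4A2 and IER2 did not pass the test. EGR2, EGR3 and NR4A3 had a mean under 1 FPKM over the 6 libraries and were not tested. Thus 4 of the 7 tested members passed at an adjusted p under 0.05, 1 upward and 3 downward, where 14.3% of all 12809 tested genes passed, 7.86% upward and 6.46% downward. The values as deposited gave 1007 higher and 828 lower genes. This balance moved with the scaling: setting all libraries to the same FPKM total gave 835 higher and 854 lower genes, and scaling to reads of nuclear genes gave 1258 and 660. The shENO1 and wild-type libraries did not overlap for 4 of the 7 tested members (1 with shENO1 above and 3 with shENO1 below), and for 37.5% of all tested genes (19.6% above and 17.9% below). The median log2 fold change was -0.15 over the 7 tested members and -0.02 over all tested genes. Fold changes on the log2 scale were computed on FPKM + 1 and understate the change of low genes. Exact permutation tests are not repeated per gene, since 3 against 3 libraries cannot go below p = 0.1 (two-sided).

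**Figure D2:**
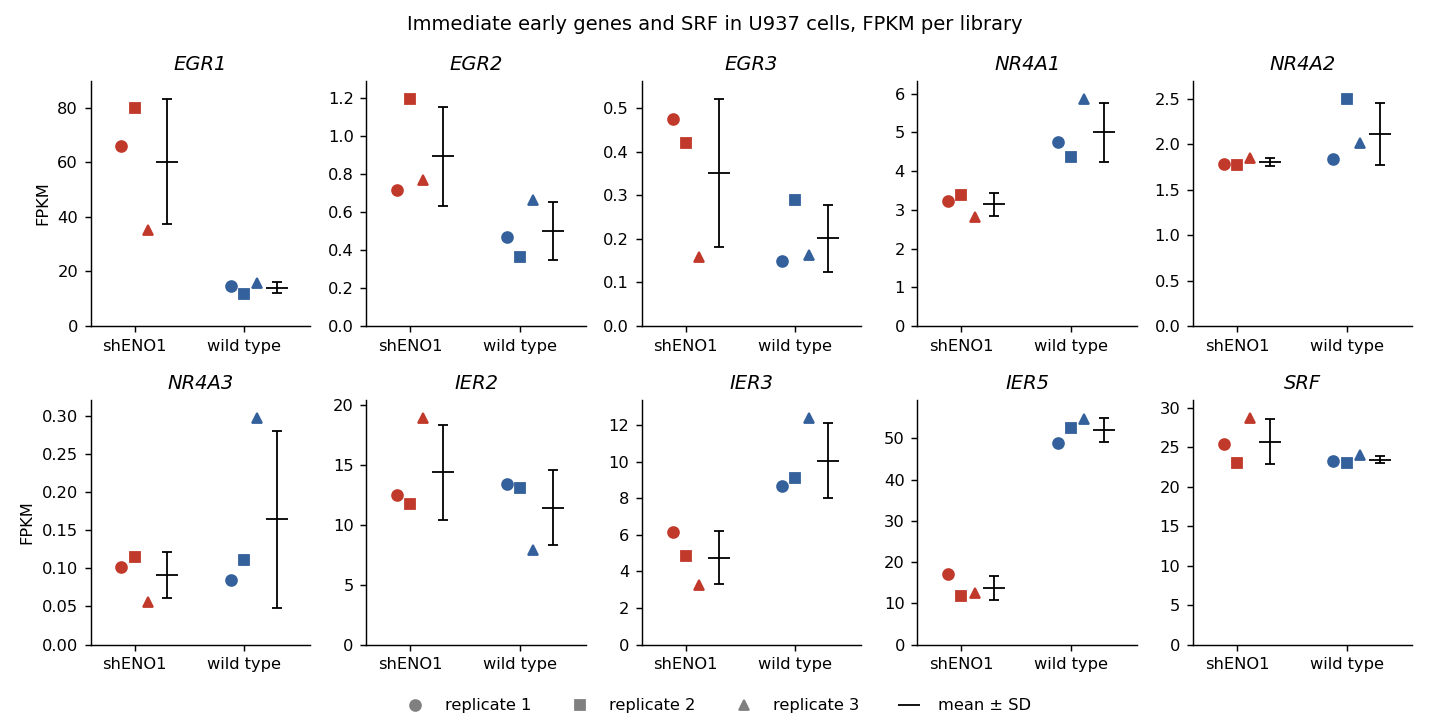
FPKM (y axis, linear and from 0, scaled per gene) of each member in the shENO1 libraries (red, left) and wild-type libraries (blue, right), with marker shapes for replicates and bars for mean ± SD of 3 libraries. The 3 shENO1 libraries lie above the wild-type libraries for EGR1 and EGR2 and below them for NR4A1, IER3 and IER5.

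EGR1 (ENSG00000120738, chromosome 5, 138465490 to 138469315, plus strand, GRCh38, a single GENCODE transcript) was at 65.9, 79.7 and 35.1 FPKM in shENO1 replicates 1 to 3, against 14.6, 11.8 and 15.7 FPKM in the wild-type libraries. Each shENO1 library lay above all wild-type libraries, and shENO1 replicate 3 was the lowest of its group. The means were 60.2 ± 22.9 FPKM in shENO1 cells and 14.02 ± 2.02 FPKM in wild-type cells (SD, n = 3 each), a 4.29-fold difference. The log2 fold change was 1.96 (SE 0.30, 95% interval 1.25 to 2.66, limma adjusted p = 0.0118), on 1855 to 3802 reads per shENO1 library and 578 to 690 reads per wild-type library. By size on the FPKM + 1 scale, which understates low genes, this was rank 3 among the increases of all tested genes. The call was lost without shENO1 replicate 1 (log2 fold change 1.85, adjusted p = 0.0518), without wild-type replicate 1 (1.99, adjusted p = 0.0547) and without wild-type replicate 2 (1.84, adjusted p = 0.0529). The spread was wider in shENO1 cells, with an SD of 38.0% of the mean, against 14.4% in wild-type cells.

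EGR2 (ENSG00000122877, chromosome 10, 62811996 to 62919900, minus strand), needed for hindbrain and Schwann cell development and active in macrophages, was at 0.714, 1.19 and 0.772 FPKM in shENO1 libraries, against 0.467, 0.364 and 0.665 FPKM in wild-type libraries. The groups did not overlap, but wild-type replicate 3 reached close to the lowest shENO1 library. Over the group, 156 reads were counted in shENO1 cells (exact Poisson 95% interval 132.5 to 182.5) and 81 in wild-type cells (64.3 to 100.7); these intervals cover counting error only. EGR3 (ENSG00000179388, chromosome 8, 22687659 to 22693302, minus strand), known from muscle spindle development and lymphocyte tolerance, was at 0.477, 0.42 and 0.159 FPKM in shENO1 libraries, against 0.15, 0.29 and 0.164 FPKM in wild-type libraries. These ranges overlapped, on 13 to 36 and 11 to 22 reads per library. With no filter on FPKM, limma gave adjusted p = 0.379 for EGR2 (log2 fold change 0.33) and 0.576 for EGR3 (0.16). EGR1 thus carried nearly all of the family's level: 97.9% ± 0.42 of the summed EGR FPKM in shENO1 cells and 95.2% ± 0.631 in wild-type cells (SD, n = 3 each).

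Among the nuclear receptors, NR4A1 (Nur77, ENSG00000123358, chromosome 12, 52022832 to 52059507, plus strand) was the most abundant. It was at 3.23, 3.38 and 2.81 FPKM in shENO1 libraries, against 4.76, 4.37 and 5.86 FPKM in wild-type libraries, so every shENO1 library lay below every wild-type library. The means were 3.14 ± 0.295 FPKM in shENO1 cells and 4.998 ± 0.77 FPKM in wild-type cells (SD, n = 3 each), which is 62.9% of the wild-type level. NR4A1 fell by 0.53 on the log2 scale (SE 0.12, adjusted p = 0.0365). This call was narrow: it was lost without any one of the 6 libraries, shENO1 replicates 1 to 3 and wild-type replicates 1 to 3, with adjusted p from 0.0619 to 0.111 and log2 fold changes from -0.60 to -0.43.

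NR4A2 (Nurr1, ENSG00000153234, chromosome 2, 156324432 to 156342348, minus strand), best known for dopamine neurons, was at 1.78, 1.77 and 1.85 FPKM in shENO1 libraries, against 1.84, 2.50 and 2.02 FPKM in wild-type libraries. The ranges overlapped slightly, and the log2 fold change of -0.15 did not pass (95% interval -0.45 to 0.15, limma adjusted p = 0.463). NR4A3 (NOR1, ENSG00000119508, chromosome 9, 99821855 to 99866891, plus strand) was close to silent, with 0.102, 0.115 and 0.0564 FPKM in shENO1 libraries and 0.084, 0.111 and 0.297 FPKM in wild-type libraries. That is 6 to 11 reads per shENO1 library and 8 to 26 reads per wild-type library, and only wild-type replicate 3 stood out. With no filter on FPKM its log2 fold change was -0.09 (limma adjusted p = 0.598). A small noncoding locus overlaps NR4A1 on the other strand and was at 0.144 FPKM or less in every library, and no strand setting is given in the sources used here.

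IER5 (ENSG00000162783, chromosome 1, 181088712 to 181092899, plus strand) fell, and was the member whose call held without any 1 library. It was at 17.1, 11.7 and 12.4 FPKM in shENO1 libraries, against 48.9, 52.4 and 54.8 FPKM in wild-type libraries. The gap between the groups was wider than the range within either. The means were 13.7 ± 2.97 FPKM in shENO1 cells and 52.1 ± 2.97 FPKM in wild-type cells (SD, n = 3 each), a ratio of 26.4%. The log2 fold change was -1.87 (SE 0.15, 95% interval -2.23 to -1.51, limma adjusted p = 0.00351). By size on the FPKM + 1 scale, which understates low genes, that was rank 50 among the decreases of all tested genes. With any 1 library left out the log2 fold change stayed between -2.02 and -1.77, with limma adjusted p from 0.00795 to 0.0238.

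IER3 (ENSG00000137331, chromosome 6, 30743199 to 30744554, minus strand) was at 6.16, 4.85 and 3.24 FPKM in shENO1 libraries, against 8.65, 9.10 and 12.4 FPKM in wild-type libraries. All shENO1 libraries lay below all wild-type libraries. The log2 fold change was -0.96 (SE 0.22, adjusted p = 0.0344) between means of 4.75 ± 1.46 FPKM in shENO1 cells and 10.1 ± 2.05 FPKM in wild-type cells (SD, n = 3 each). As for NR4A1, the call was lost without any one of the 6 libraries, with adjusted p from 0.0506 to 0.0921 and log2 fold changes from -1.13 to -0.76. The antisense locus IER3-AS1 was listed at 0 in all 6 libraries.

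IER2 (ENSG00000160888, chromosome 19, 13150415 to 13154908, plus strand), a nuclear protein linked to cell motility, was at 12.5, 11.7 and 18.9 FPKM in shENO1 libraries, against 13.4, 13.1 and 7.85 FPKM in wild-type libraries. The highest and the lowest values were those of shENO1 replicate 3 and wild-type replicate 3, the libraries at the ends of component 2, and the other 4 libraries lay close together. The log2 fold change of 0.31 did not pass (95% interval -0.28 to 0.90, adjusted p = 0.44), and without those 2 libraries it was -0.12 (adjusted p = 0.348). SRF (ENSG00000112658, chromosome 6, 43171299 to 43181507, plus strand), a MADS-box factor, was at 25.4, 23.0 and 28.8 FPKM in shENO1 libraries, against 23.3, 23.1 and 24.0 FPKM in wild-type libraries. These ranges overlapped, and the log2 fold change of 0.12 did not pass (95% interval -0.12 to 0.37, adjusted p = 0.462).

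**Figure D3:**
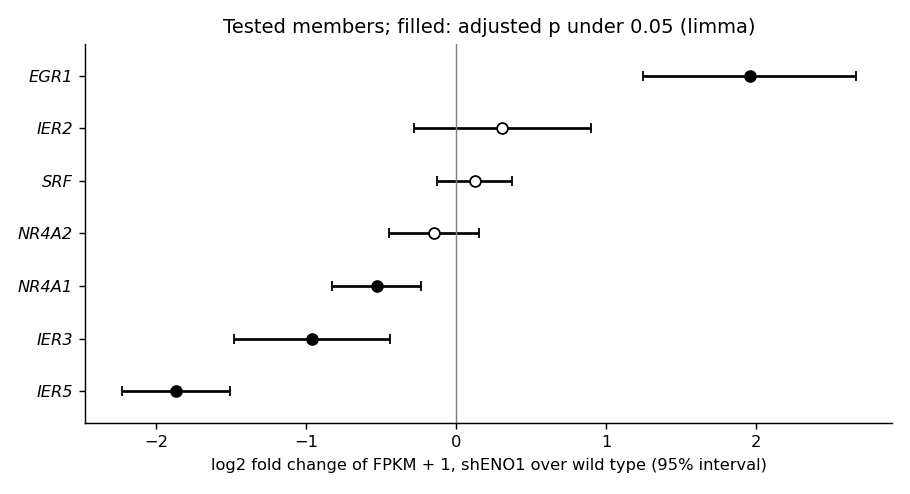
Log2 fold change of FPKM + 1 (x axis, shENO1 over wild type) for the 7 tested members, with limma 95% intervals and filled points where the adjusted p was under 0.05. EGR1 stands at 1.96 and IER5 at -1.87, and the intervals of IER2, SRF and NR4A2 include 0.

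The members therefore changed places in the order of levels. Levels of unlike genes compare only roughly, since FPKM here divides by 1 fixed length per gene. That length was 7295 bases for NR4A1, which has 22 GENCODE transcripts, and 3138 bases for EGR1, which has 1. In shENO1 cells EGR1 was the highest at 60.2 FPKM, followed by SRF (25.7), IER2 (14.4) and IER5 (13.7), with the ranges of IER2 and IER5 overlapping. In wild-type cells IER5 was the highest at 52.1 FPKM, followed by SRF (23.5), EGR1 (14.02), IER2 (11.4) and IER3 (10.1), and the ranges of EGR1, IER2 and IER3 overlapped in turn. The lowest places were held by NR4A2, EGR2, EGR3 and NR4A3 in both groups. Further neighbours with overlapping ranges were IER3 and NR4A1 in shENO1 cells and EGR3 and NR4A3 in wild-type cells. A ratio within a library does not depend on scaling between libraries: EGR1 over IER5 was 3.84, 6.83 and 2.83 in shENO1 libraries and 0.298, 0.225 and 0.286 in wild-type libraries. EGR1 over SRF was 2.59, 3.46 and 1.22 in shENO1 libraries and 0.626, 0.51 and 0.655 in wild-type libraries. IER5 over SRF was 0.674, 0.507 and 0.431 in shENO1 libraries and 2.10, 2.27 and 2.29 in wild-type libraries. None of these 3 ratios overlapped between groups. For EGR1 over IER5 this had to follow, since both genes already lay apart between groups, in opposite directions. The ratios to SRF largely restate EGR1 and IER5, since SRF ranged only from 23.0 to 28.8 FPKM. EGR1 over IER2 did overlap, since shENO1 replicate 3 had 1.85 and wild-type replicate 3 had 2.002.

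Other immediate early genes mostly fell with IER5, IER3 and NR4A1 or did not pass. Of 44 tested genes on this list, 6 rose and 19 fell, with a median log2 fold change of -0.41, beside 7.86% and 6.46% of all tested genes and a median of -0.02. DUSP1, a phosphatase that switches off MAP kinases, fell to 5.53 ± 0.785 FPKM in shENO1 cells, against 43.9 ± 3.87 FPKM in wild-type cells (log2 fold change -2.79, SE 0.12, adjusted p = 0.000651). PPP1R15A, a regulatory subunit that directs dephosphorylation of eIF2 alpha, was at 45.6 ± 15.4 FPKM in shENO1 and 140 ± 33.5 FPKM in wild-type cells (-1.62, adjusted p = 0.0161), and SGK1, a kinase, at 1.15 ± 0.224 FPKM in shENO1 and 5.21 ± 0.442 FPKM in wild-type cells (-1.53, adjusted p = 0.00351). MYC, like EGR1, rose: it was at 69.1 ± 9.05 FPKM in shENO1 and 19.6 ± 3.45 FPKM in wild-type cells (1.77, SE 0.16, adjusted p = 0.00445).

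Among AP-1 genes, FOSB (log2 fold change 0.83), FOSL1 (0.74) and FOSL2 (0.39) rose and JUN (-0.77) fell. FOS, the classic partner of EGR1 in serum responses, was at 69.0, 74.6 and 58.7 FPKM in shENO1 libraries and 60.6, 63.1 and 64.4 FPKM in wild-type libraries, which overlapped (log2 fold change 0.10, adjusted p = 0.615). Of the other dual-specificity phosphatase genes on the list, which act on MAP kinases, DUSP6 rose (0.59, adjusted p = 0.0131), DUSP2 (-0.82, adjusted p = 0.0136) and DUSP5 (-0.99, adjusted p = 0.0234) fell, and DUSP4 (-0.14) did not pass. Leaving out wild-type replicate 1 or wild-type replicate 2 ended the calls of both DUSP2 and DUSP6 (adjusted p from 0.0504 to 0.0702), and that of DUSP5 held without wild-type replicate 3 only. With 1 library left out in turn, the calls of FOSB and FOSL2 were lost in 5 of 6 fits, that of FOSL1 in 3 and that of JUN in 1. IER5L, a paralogue of IER5, was at 6.50, 6.43 and 3.81 FPKM in shENO1 libraries and 6.70, 8.68 and 16.9 FPKM in wild-type libraries, without passing (adjusted p = 0.168). AP-1 members, these phosphatase genes and IER5L were singled out after their values were seen. EGR4 was listed at 0 in all libraries. The counts were lowest in 3 of the 6 fits that left out 1 library. With shENO1 replicate 1 dropped, 3 rose and 9 fell. For wild-type replicate 1 it was 2 and 7, and for wild-type replicate 2 it was 2 and 6. Dropping shENO1 replicate 2 gave 5 higher and 15 lower genes, its replicate 3 gave 5 and 17, and the third wild-type library gave 4 and 14. The drop was not particular to this list. Calls over all tested genes went from 1007 higher and 828 lower to 287 and 263 with shENO1 replicate 1 dropped. They went to 148 and 132 for wild-type replicate 1 and to 217 and 167 for wild-type replicate 2. The call of PPP1R15A was lost without the same 3 libraries (adjusted p = 0.0669, 0.0711 and 0.0655 in that order), while those of DUSP1, SGK1 and MYC held without any 1 library.

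**Figure D4:**
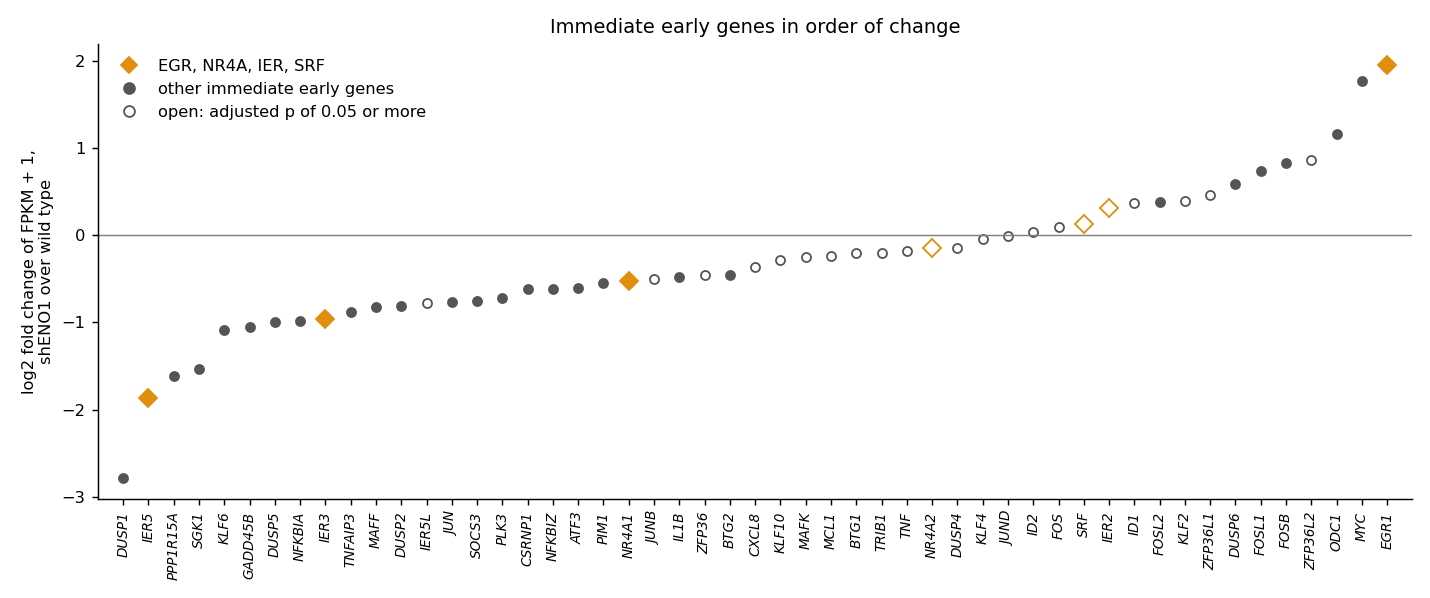
Log2 fold change of FPKM + 1 (y axis, shENO1 over wild type) of 44 other tested immediate early genes (grey circles) and the 7 tested members (orange diamonds), in order of change; open symbols did not pass. DUSP1 (-2.79) and IER5 (-1.87) stand at the low end, MYC (1.77) and EGR1 (1.96) at the high end.

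In the kinase cascade and SRF cofactors that lead to these promoters, 2 of 32 tested genes rose and 3 fell, with a median log2 fold change of 0.03. This share of 15.6%, and the lists that follow, stand beside 14.3% of all 12809 tested genes called by limma. On the recovered reads, limma-voom called 1393 of these genes higher and 928 lower. The share of all genes at an unadjusted p under 0.05 is not given here. The SRF coactivator MRTFA was at 9.12 ± 1.01 FPKM in shENO1 and 5.96 ± 1.004 FPKM in wild-type cells (log2 fold change 0.55, adjusted p = 0.0415). SPRY2, a feedback inhibitor of receptor signalling, rose by 0.45 on the log2 scale. The ternary complex factor ELK4 fell by 0.50 and the ERK-activated kinase RPS6KA1 also fell by 0.50. Of the SRF targets of the actin cytoskeleton, 0 of 24 rose and 2 fell (limma, TPM2 by 0.79 and TPM4 by 0.45 on the log2 scale), with 1 higher and 4 lower at an unadjusted p under 0.05 and 0 higher and 3 lower by limma-voom. Among CREB and its coactivators, 0 of 17 rose and 1 fell (limma, CRTC2 by 0.33 on the log2 scale), with 4 higher and 4 lower at an unadjusted p under 0.05 and 3 higher and 0 lower by limma-voom.

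Among partners of the encoded proteins, 0 of 13 rose and 1 fell (limma), with 0 higher and 1 lower at an unadjusted p under 0.05 and the same counts by limma-voom. The gene that fell was CDC25B, a cell cycle phosphatase gene that has been linked to IER5, at 47.9 ± 4.01 FPKM in shENO1 and 74.0 ± 8.47 FPKM in wild-type cells. The EGR corepressor gene NAB2, itself known to be induced by EGR1, was at 7.13, 5.94 and 9.73 FPKM in shENO1 libraries and 10.6, 11.7 and 8.37 FPKM in wild-type libraries, which overlapped (adjusted p = 0.205). Of 16 tested genes reported elsewhere as EGR1 targets, 0 rose and 3 fell (limma), with 2 higher and 4 lower at an unadjusted p under 0.05 and 2 higher and 3 lower by limma-voom. VEGFA, a growth factor for vessels, was at 11.05 ± 2.49 FPKM in shENO1 and 26.4 ± 5.59 FPKM in wild-type cells (log2 fold change -1.18, adjusted p = 0.017). The others that fell were BBC3 (-0.91) and CDKN1A (-0.58). The list's median was -0.21. Of the 11 genes named here from these 5 lists, 11 no longer passed without shENO1 replicate 1, 11 without wild-type replicate 1, 11 without wild-type replicate 2, 8 without shENO1 replicate 2, and 4 each without shENO1 replicate 3 and wild-type replicate 3.

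Beside the fall of IER5 stood that of heat shock genes, to whose factor HSF1 its protein binds: 0 of 11 tested rose and 8 fell (limma), with a median log2 fold change of -1.24, 0 higher and 11 lower at an unadjusted p under 0.05 and 0 higher and 10 lower by limma-voom. HSPA1B, which has a near-identical copy in HSPA1A, was at 16.9 ± 3.75 FPKM in shENO1 and 270 ± 36.2 FPKM in wild-type cells, and HSPA1A at 12.5 ± 4.94 FPKM in shENO1 and 189 ± 47.0 FPKM in wild-type cells. The split of reads between these copies is uncertain. The co-chaperone gene DNAJB1 was at 17.4 ± 3.74 FPKM in shENO1 and 172 ± 34.5 FPKM in wild-type cells, and HSPA8, the constitutive HSP70, at 115 ± 7.27 FPKM in shENO1 and 391.8 ± 29.7 FPKM in wild-type cells. HSF1 itself was at 28.8, 23.8 and 23.1 FPKM in shENO1 libraries and 24.9, 24.5 and 28.8 FPKM in wild-type libraries (log2 fold change -0.05, adjusted p = 0.815). A part of the heat shock genes in the fall of IER5, or the reverse, was not tested.

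Of 11 tested myeloid markers, 3 rose, 0 fell and 8 did not pass (limma), with 6 higher and 0 lower at an unadjusted p under 0.05 and the same by limma-voom. PRTN3, encoding proteinase 3, was at 513 ± 50.7 FPKM in shENO1 and 196 ± 58.8 FPKM in wild-type cells. Its call was lost without shENO1 replicate 1 (adjusted p = 0.0551), wild-type replicate 1 (0.0582) and wild-type replicate 2 (0.058). CSF1R, the receptor of macrophage colony-stimulating factor, was at 2.28 ± 0.455 FPKM in shENO1 and 0.941 ± 0.0813 FPKM in wild-type cells (adjusted p = 0.0245). FCGR1A, a high-affinity Fc receptor, was at 3.72 ± 0.494 FPKM in shENO1 and 2.11 ± 0.344 FPKM in wild-type cells (adjusted p = 0.0322). The last pair was named after its values were seen; the call of CSF1R held only without shENO1 replicate 2 or wild-type replicate 3, and that of FCGR1A only without shENO1 replicate 2. The most abundant of the markers that did not pass were ELANE and LYZ. ELANE, encoding neutrophil elastase, was at 789 ± 101 FPKM in shENO1 and 498 ± 104 FPKM in wild-type cells (adjusted p = 0.0639). LYZ, encoding lysozyme, was at 634 ± 192 FPKM in shENO1 and 384 ± 66.7 FPKM in wild-type cells (limma adjusted p = 0.107). Its highest value, 855 FPKM, was that of shENO1 replicate 3, a library at an end of component 2. Of the 2 tested markers of other cell types, 1 rose, PECAM1 (20.3 ± 0.965 FPKM in shENO1 and 15.0 ± 1.57 FPKM in wild-type cells). Its call was lost without shENO1 replicates 1, 2 or 3 or wild-type replicates 1 or 2 (adjusted p from 0.0737 to 0.158). The part of cell state in the change of EGR1 was not tested.

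Likeness of pattern was measured over the 6 libraries as the root mean square difference between log2(FPKM + 1) profiles, each centred on its own mean, with small values for alike profiles. EGR1 had no close match: the nearest gene was MYC (0.28), then CYBB (0.33), the catalytic subunit of the phagocyte oxidase, and HS3ST2 (0.34), a heparan sulfate enzyme gene. The nearest protein-coding gene to IER5 among the first 3 was CD52 (0.19), a leukocyte surface glycoprotein gene, at 2.36 ± 0.766 FPKM in shENO1 and 11.5 ± 1.51 FPKM in wild-type cells; AC067931.1 (0.14) and MIR4787 (0.18) were nearer but low. NR4A1 lay next to AC006978.1 (0.04), RPS10 (0.04), whose reads may be shared with its processed copies, and RAB8B (0.05). IER2 lay next to EEF1AKMT1 (0.06), PIGBOS1 (0.06) and FCN1 (0.08), and SRF next to TMEM222 (0.02), CXorf56 (0.03) and MAN2B1 (0.03). Small differences are easier to reach for genes that vary little, as SRF and NR4A1 do.

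**Figure D5:**
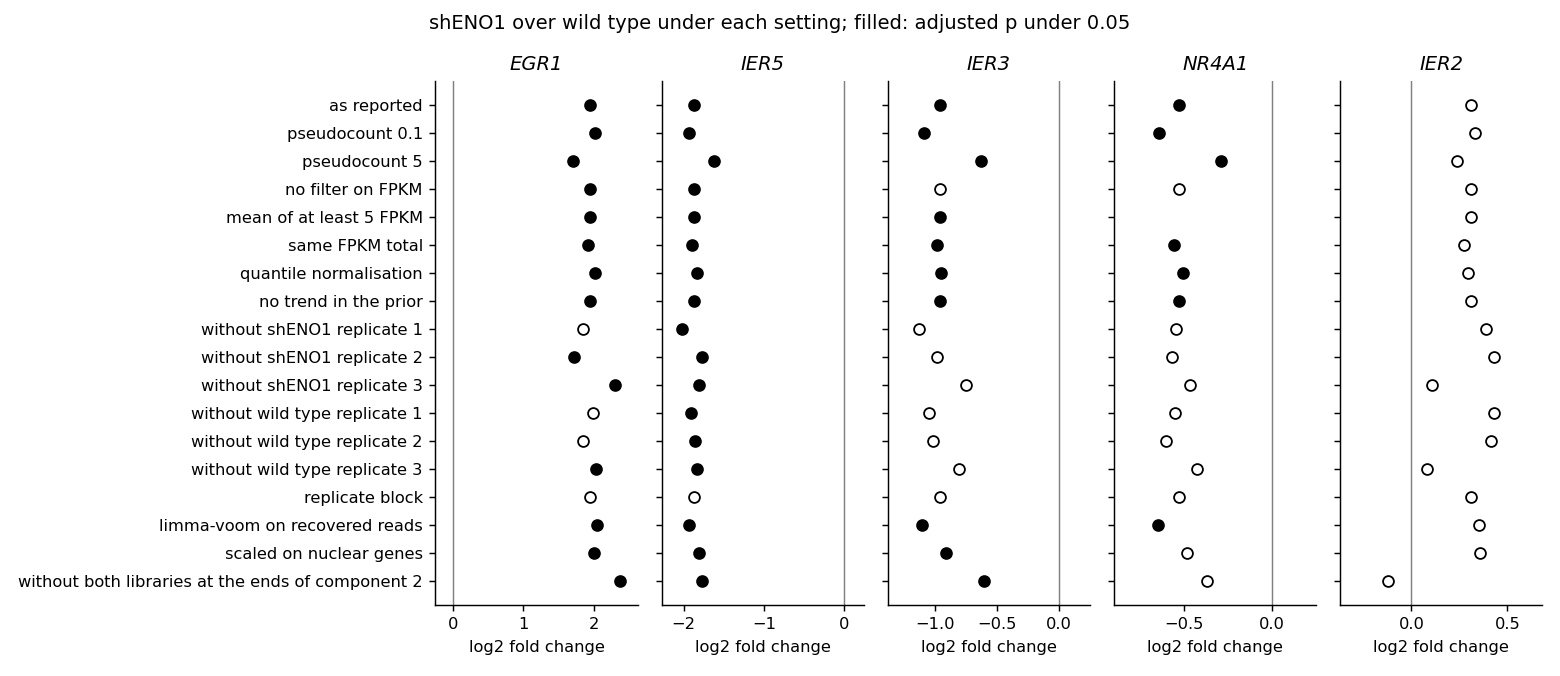
Log2 fold change (x axis, shENO1 over wild type, own scale per gene) of EGR1, IER5, IER3, NR4A1 and IER2 as reported and under 17 other settings (rows), filled where the adjusted p was under 0.05. EGR1, IER5, IER3 and NR4A1 keep their direction in every row where they were tested. Of the rows that leave out 1 library, EGR1 is open in 3, IER3 and NR4A1 in each, and IER5 in 0. With the replicate block all are open.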

How the data were processed

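RNA sequencing of 6 libraries was analysed from 1 deposited table. Its values are FPKM as the authors' normalisation with Cuffnorm left them, per the submitters' processing notes, which also name STAR, Cufflinks and hg38 (GRCh38); versions, parameters and strand setting are not given in the sources used here. FPKM times the table's gene length came out in whole steps, 1 step size per library, for 100% of values above 0 (tolerance 0.001), which gave reads per gene and depth.

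The test was limma 3.58.1 (R 4.3.3) on log2(FPKM + 1), for genes whose mean reached 1 FPKM (2 groups, empirical Bayes with trend, Benjamini-Hochberg over 12809 genes, threshold 0.05). Ranges and single values come from Python 3.11.15. Members and 9 gene lists (212 entries, 210 matched by the table's symbol and 2 by the current symbol; 2 further list genes are not reported here) were chosen with earlier results of these data known. Genes named outside the members are ENO1, up to 4 called members of each list with the largest change, the 3 highest markers of each cell type list, and the 3 nearest profiles of 5 members; others are said to be chosen after their values were seen, as were FOS, NAB2 and HSF1. Whether replicate numbers pair libraries is not given in the sources used here. Same-numbered deviations from the group means correlated at -0.08, -0.33 and -0.46. These correlations cannot settle the pairing, since the deviations cancel out within each group. Alternatives covered pseudocount, filter, scaling, prior, left-out libraries and the block; limma-voom on recovered reads, nuclear scaling and leaving out the pair of libraries that ends component 2 were chosen after seeing the data.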

Additional observations from a re-analysis of the deposited data

How the results depend on the processing

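IER5, EGR1, IER3 and NR4A1 kept their direction under each of the 17 alternatives in which they were tested. Most of these could not have turned it. The groups of these members did not overlap, so leaving out libraries keeps the sign. Filter, prior and block leave the estimate unchanged. With the replicate number as a block, adjusted p rose over the threshold for EGR1 (1.96, adjusted p = 0.0808), IER5 (-1.87, 0.0713), IER3 (-0.96, 0.136) and NR4A1 (-0.53, 0.145); limma then called 0 genes higher and 1 lower, 0 members and 0 other immediate early genes in either direction, with 1557 and 1524 genes, 1 and 3 members, and 7 and 19 other immediate early genes at an unadjusted p under 0.05. Whether the numbers pair libraries is not given. No library correlated best with its own number, which cannot settle the pairing. With no filter on FPKM, 445 genes were higher and 381 lower, 1 member (IER5) and 12 other immediate early genes were lower, and IER3 (-0.96, adjusted p = 0.0971) and NR4A1 (-0.53, 0.0959) did not pass among more genes tested. NR4A1 also missed with nuclear scaling (-0.48, 0.0563) and without the pair of libraries that ends component 2 (-0.37, 0.0553). That last setting gave 1637 genes higher and 2041 lower and 10 other immediate early genes higher. It kept replicates 1 and 2 of each group, which component 2 also set apart by group. Their scores were 1.73 and 13.2 in shENO1 and -3.32 and -9.15 in wild-type libraries. In the same setting IER2 turned to -0.12, and so did EEF1AKMT1 (-0.16), PIGBOS1 (-0.18) and FCN1 (-0.17), none past the threshold. With 1 library left out in turn, 148 to 917 genes were higher and 132 to 775 lower, 0 to 1 members higher and 1 lower each time, and 2 to 5 other immediate early genes higher and 6 to 17 lower; EGR1 ranged from 1.72 to 2.30, IER5 from -2.02 to -1.77, IER3 from -1.13 to -0.76 and NR4A1 from -0.60 to -0.43. The cause was not tested. A mean of at least 5 FPKM left NR4A1 and NR4A2 untested. EGR2, EGR3 and NR4A3 had 6 to 67 reads per library.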
